A study of Mus musculus with 4 samples.

Results

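A group of 10 genes of MHC class I antigen presentation was followed by name in RNA-seq of splenic CD4+ T cells, namely *H2-K1*, *H2-D1*, *B2m*, *Tap1*, *Tap2*, *Tapbp*, *H2-T23*, *H2-Q7*, *H2-Q4* and *Nlrc5*. They are among the 55367 gene symbols counted in each library, and all 10 were found and had enough counts to be tested. RNA came from sorted peripheral CD4+ T cells of C57BL/6 spleens, untreated, with 2 libraries labelled WT and 2 labelled *Satb1* conditional knockout (cKO). The series description gives the conditional knockout as floxed *Satb1* with ThPOK-cre or E8I-cre, and the study gives its splenic CD4+ cKO cells as *Thpok-cre*, a driver that acts after commitment to the CD4 lineage. The sample labels themselves do not name the Cre line, the alleles that WT mice carry, or the age or sex of the mice. The study treats the libraries of a group as biological replicates, but the labels do not tie each to a mouse, so p-values measure the spread between these 4 libraries, which may be partly technical.

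MHC class I molecules carry peptides from inside the cell to its surface, where CD8+ T cells and NK cells read them. A heavy chain, encoded in the mouse by *H2-K1* and *H2-D1* for the classical molecules and by *H2-Q* and *H2-T* genes for many of the others, pairs with beta-2 microglobulin, the product of *B2m*. Peptides cut by the proteasome are pumped into the endoplasmic reticulum by TAP, a pair of *Tap1* and *Tap2* proteins, and tapasin, from *Tapbp*, holds the empty heavy chain next to TAP. NLRC5 is a transactivator of these genes, and interferons raise their transcription in most cell types, T cells included.

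The libraries held between 4495902 and 6555699 gene counts, and 3 counts, used as the floor, came to between 0.459 and 0.672 CPM. CPM are counts scaled to a library of 1e+06 gene counts, with library sizes corrected by TMM, edgeR's default scaling. *Satb1* itself did not separate the labels, with 5677, 4390, 4958 and 3986 counts in WT 1, WT 2, cKO 1 and cKO 2 (log2 fold change -0.05, edgeR quasi-likelihood test, adjusted p = 0.877). These counts are summed over the gene, so they cannot show whether its floxed part was removed. *Foxp3* was higher in the libraries labelled cKO (log2 fold change 1.86, edgeR adjusted p = 0.000447). *Xist*, which marks female cells, had 5447 and 4235 counts in WT and 9 and 6 in cKO, while the Y-linked *Ddx3y* had 0 and 0 counts in WT and 525 and 597 in cKO, so genotype and sex cannot be told apart. Markers of CD4+ T cells were abundant in every library, with *Cd4* between 1183 and 1279 CPM.

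The sequences upstream of the heavy chain genes show how closely these genes resemble each other, and where the known elements of class I promoters lie. Stretches from RefSeq GRCm38.p6 are given 5′ to 3′ on the gene's strand, and they end before the annotated transcription start. Capitals mark 5 motifs searched on both strands: the kappaB-type sequence GGGATTCCC, the interferon response sequence TTTCACTTC, the interferon regulatory factor sequence GAAANNGAA, the cyclic AMP element core TGACG and the CCAAT box. No 2 of the motifs overlapped in the stretches shown.
H2-K1, chr17:34000349-34000462, minus strand: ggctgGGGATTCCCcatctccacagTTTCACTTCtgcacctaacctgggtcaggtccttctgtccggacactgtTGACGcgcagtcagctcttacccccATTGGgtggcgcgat
H2-D1, chr17:35262919-35263032, plus strand: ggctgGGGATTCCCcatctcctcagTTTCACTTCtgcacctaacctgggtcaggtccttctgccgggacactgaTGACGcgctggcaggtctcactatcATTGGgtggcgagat
H2-Q4, chr17:35379439-35379552, plus strand: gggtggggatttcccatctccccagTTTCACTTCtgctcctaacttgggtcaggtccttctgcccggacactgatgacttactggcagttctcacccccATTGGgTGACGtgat
H2-Q7, chr17:35439017-35439129, plus strand: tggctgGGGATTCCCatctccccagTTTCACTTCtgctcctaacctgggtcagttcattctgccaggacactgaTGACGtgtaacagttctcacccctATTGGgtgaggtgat
H2-Q6, chr17:35424673-35424785, plus strand: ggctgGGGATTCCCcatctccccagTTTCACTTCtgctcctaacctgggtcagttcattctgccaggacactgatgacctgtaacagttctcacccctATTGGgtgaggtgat
H2-T23, chr17:36032739-36032849, minus strand: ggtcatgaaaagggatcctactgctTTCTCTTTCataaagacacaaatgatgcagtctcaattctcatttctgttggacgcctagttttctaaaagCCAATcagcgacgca
B2m, chr2:122147523-122147648, plus strand: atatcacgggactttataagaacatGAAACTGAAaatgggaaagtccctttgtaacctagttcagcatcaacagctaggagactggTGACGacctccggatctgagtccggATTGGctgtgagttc

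Of the 10 members, 8 were in the promoter table, and the shares below are over its 32851 windows of 300 bases. GGGATTCCC was in the windows of *H2-K1*, *H2-D1* and *H2-Q7*, and in 0.353% of all windows. TTTCACTTC was in those of *H2-K1*, *H2-D1*, *H2-Q7* and *H2-Q4*, and in 0.505% of all. GAAANNGAA was in the windows of *B2m* and *H2-T23*, against 8.56% of all. TGACG was in 6 of the 8 windows and a CCAAT box in 8 of the 8, but these short sequences were also in 20.8% and 37.4% of all windows. A match is a description of the letters only. *Tap2* and *Nlrc5* had no entry.

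Of the 10 members, 0 were called between cKO and WT (edgeR quasi-likelihood test, adjusted p under 0.05 over all tested genes). By the same rule 4.30% of the 12403 genes tested were called, 2.35% higher and 1.95% lower in cKO, against which 0 of 10 is not far from the background. DESeq2 also called 0 of 10 members, beside 3.44% of all genes. At an unadjusted p under 0.05 by edgeR, 1 member passed, *H2-Q4*, beside 19.1% of all genes. In CPM, 4 of the 10 members had values that did not overlap between the groups, all higher in cKO, while 50.3% of all genes did not overlap, 24.8% of all genes being higher. The median log2 fold change of the members was 0.099, with a range from -0.08 to 0.34, 7 above 0 and 3 below. The median of all tested genes was -0.0015. The count of members called turned on single libraries: without cKO 1, 2 were called, *H2-Q7* (log2 fold change 0.61, edgeR adjusted p = 0.00152) and *H2-Q4* (0.30, adjusted p = 0.0300), and without cKO 2, 1 was called, *Nlrc5* (-0.26, adjusted p = 0.0489). These fits also called more of the 12403 genes, 1313 without cKO 1 and 1583 (12.8%) without cKO 2, against 499 without WT 1 and 174 without WT 2.

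**Figure D1:**
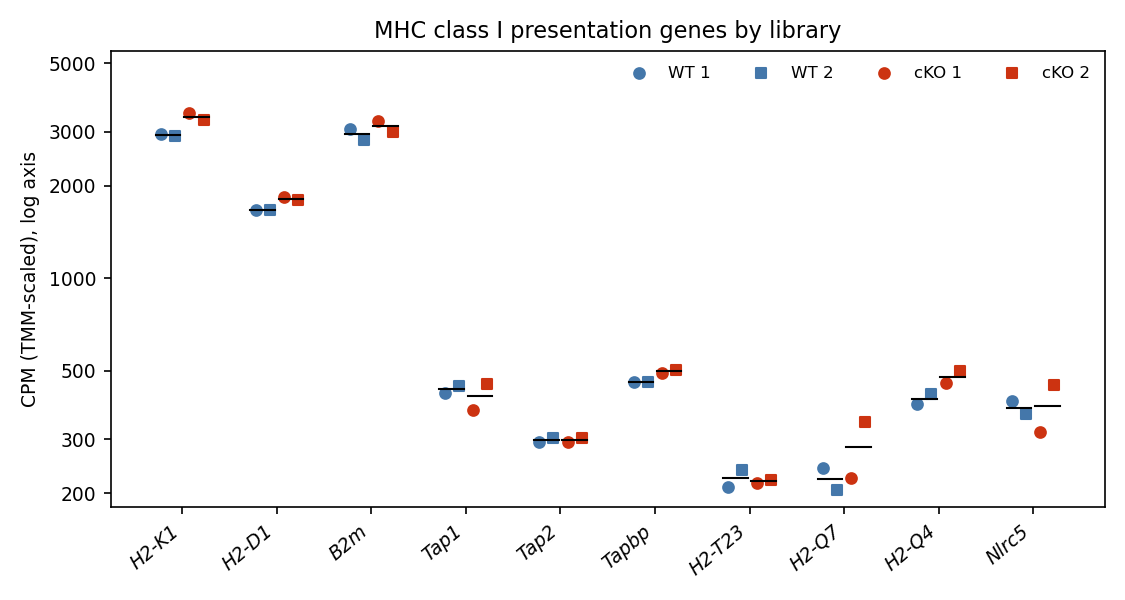
CPM on TMM-scaled library sizes of the 10 members in each library, on a log axis, with 1 point per library and the group labelled WT or cKO. *B2m*, *H2-K1* and *H2-D1* lie at or above 1669 CPM in every library and the other members at or below 504 CPM, and the points of *H2-K1*, *H2-D1*, *Tapbp* and *H2-Q4* do not overlap between groups.

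*H2-K1* and *H2-D1* encode the classical heavy chains K and D. *H2-K1* (17:33996017-34000347, GRCm38, minus strand) stood at 2941 and 2912 CPM in WT and at 3439 and 3276 CPM in cKO, from 12995 to 19225 counts per library. Both cKO libraries lay above both WT libraries, with a fold of 1.15 and a 95% interval of 0.927 to 1.42 (log2 fold change 0.20, SE 0.14, edgeR adjusted p = 0.479). *H2-D1* (17:35262730-35267499, plus strand) stood at 1674 and 1669 CPM in WT and at 1835 and 1794 CPM in cKO. The groups again did not overlap, with a fold of 1.09 and an interval of 0.898 to 1.31 (log2 fold change 0.12, SE 0.12, edgeR adjusted p = 0.653). Neither passed the test, although each gene varied little within a group: the mean of *H2-K1* was 2926 ± 20.5 CPM (SD, n = 2) in WT and 3358 ± 115 CPM (SD, n = 2) in cKO. The ratio of *H2-K1* to *H2-D1* counts was 1.76 and 1.74 in WT and 1.87 and 1.83 in cKO.

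*B2m* (2:122147686-122153083, plus strand), the light chain that pairs with class I heavy chains, was at 3068 and 2827 CPM in WT and at 3244 and 2999 CPM in cKO. The groups overlapped, since WT 1 was above cKO 2. The fold was 1.06 with an interval of 0.850 to 1.32 (log2 fold change 0.08, SE 0.14, edgeR adjusted p = 0.809). With a library left out the log2 fold change ranged from 0.025 (without cKO 1) to 0.15 (without WT 1).

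*H2-Q4*, *H2-Q7* and *H2-T23* encode non-classical heavy chains, the last being Qa-1, the chain that presents the leader peptides of other class I molecules to NK receptors. *H2-Q4* (17:35379617-35385290, plus strand) was at 389.9 and 419.9 CPM in WT and at 457 and 499.5 CPM in cKO. Both cKO libraries were above both WT libraries, and this was the member with the lowest p (fold 1.18, interval 1.003 to 1.39, log2 fold change 0.24, SE 0.10, unadjusted p = 0.0470, edgeR adjusted p = 0.255). *H2-Q7* (17:35439155-35443773, plus strand), one of the genes for Qa-2 antigen, was at 241 and 205 CPM in WT and at 224 and 340.5 CPM in cKO. It had the highest fold change of the members, but cKO 1 lay between the WT libraries and only cKO 2 above them (fold 1.26, interval 0.952 to 1.68, log2 fold change 0.34, SE 0.18, edgeR adjusted p = 0.353). Its log2 fold change was 0.0050 without cKO 2 and 0.61 without cKO 1, so its rank rests on cKO 2. *H2-T23* (17:36029773-36032855, minus strand) was at 209.5 and 238 CPM in WT and at 216 and 221 CPM in cKO. Both cKO values fell between the WT values (log2 fold change -0.03, SE 0.10, edgeR adjusted p = 0.904).

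The transporter and its bridge did not pass the test either. *Tap1* (17:34187553-34197225, plus strand) was at 424 and 447 CPM in WT and at 374 and 452 CPM in cKO. The cKO libraries enclosed the WT libraries (log2 fold change -0.08, SE 0.12, edgeR adjusted p = 0.780). *Tap2* (17:34203527-34216321, plus strand) was at 294 and 303 CPM in WT and at 293 and 301 CPM in cKO, the smallest spread over the 4 libraries of any member. Its fold was 0.994 with an interval of 0.857 to 1.15 (log2 fold change -0.01, SE 0.094, edgeR adjusted p = 0.977). The ratio of *Tap1* to *Tap2* counts was 1.44 and 1.47 in WT and 1.28 and 1.4997 in cKO. *Tapbp* (17:33915899-33929292, plus strand) was at 460.1 and 459 CPM in WT and at 492 and 504 CPM in cKO. Both cKO libraries were higher, with a fold of 1.08 and an interval of 0.929 to 1.26 (log2 fold change 0.12, SE 0.097, edgeR adjusted p = 0.581).

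*Nlrc5* (8:94434356-94527272, plus strand), the transactivator, was at 397.5 and 362 CPM in WT and at 317 and 451 CPM in cKO. The lowest and the highest library were both cKO, and the group means differed by less than their spread, at 380 ± 25.2 CPM in WT and 384 ± 94.4 CPM in cKO (SD, n = 2 each). Its fold was 1.01 with an interval of 0.789 to 1.29 (log2 fold change 0.01, SE 0.16, edgeR adjusted p = 0.977).

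Levels of different genes were compared as CPM per kilobase of exonic length in GENCODE M21 (CPM per kb), as the mean over the 4 libraries. *B2m* was first at 3528 CPM per kb, followed by *H2-K1* at 1069 and *H2-D1* at 676 CPM per kb. *H2-Q4* came next at 170 and *Tapbp* at 132 CPM per kb, each apart from its neighbours in every library. *Tap2* at 78.8, *Tap1* at 77.4 and *H2-T23* at 76.5 CPM per kb overlapped one another across libraries. *H2-Q7*, at 59.3 with a range of 48.1 to 79.8, and *Nlrc5*, at 45.0 with a range of 37.4 to 53.1 CPM per kb, also overlapped each other, and *H2-Q7* in cKO 2 reached the levels of *Tap1*, *Tap2* and *H2-T23*. The transactivator was thus the lowest of the 10 per length, and the light chain the highest.

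The 5 heavy chain members were also summed, as the level of heavy chain reads that could be assigned to 1 gene. Reads dropped in counting because they fit several genes are not in the sum. Their sum was 5455 and 5444 CPM in WT and 6171 and 6132 CPM in cKO, a fold of 1.13. Both cKO libraries were higher, by more than the libraries of a group differed from each other, but an exact two-sided permutation test over 2 against 2 libraries cannot go below p = 0.333, which is the value it gave. As a share of all gene counts, the sum was 0.544% and 0.540% in WT and 0.603% and 0.623% in cKO. *H2-K1* made up 53.9% and 53.5% of the heavy chain sum in WT and 55.7% and 53.4% in cKO. *H2-D1* made up 30.7% in both WT libraries and 29.7% and 29.3% in cKO. *B2m* counts per heavy chain count were 0.562 and 0.519 in WT and 0.526 and 0.489 in cKO, and these groups overlapped (exact permutation p = 0.667). All 10 members together took 1.01% and 0.977% of gene counts in WT and 1.06% and 1.10% in cKO.

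**Figure D2:**
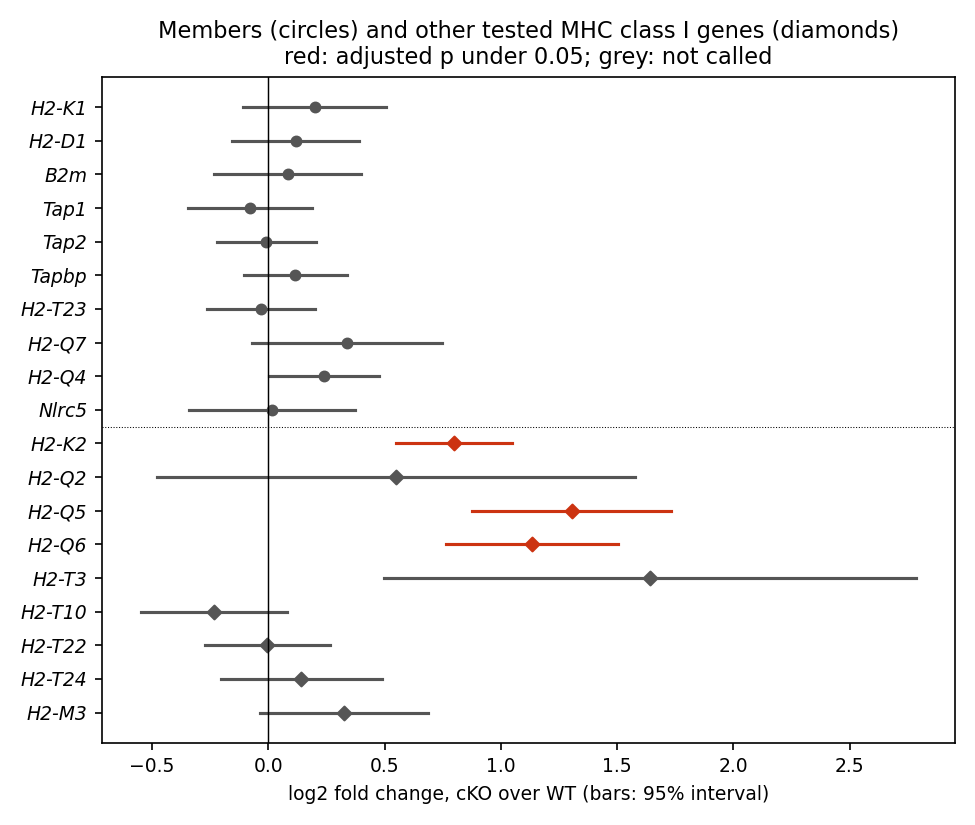
Log2 fold change of cKO against WT with 95% intervals for the 10 members and the other class I genes of the MHC that were tested, from the edgeR fit. The intervals of 9 of the members include 0, that of *H2-Q4* lies just above it, and the called *H2-Q5*, *H2-Q6* and *H2-K2* lie at 1.30, 1.13 and 0.80.

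The other class I heavy chain genes of the MHC were set beside the members. Of 27 listed, 23 were in the tables, 8 had no counts in any library and 9 were tested, and 3 of these 9 were called, all higher in cKO (2.35% of all genes were called higher). *H2-Q6* (17:35424850-35430055), a close copy of *H2-Q7*, was at 58.9 and 50.6 CPM in WT and at 101.8 and 139.7 CPM in cKO. The groups did not overlap, with a fold of 2.19 and an interval of 1.70 to 2.83 (log2 fold change 1.13, SE 0.16, edgeR adjusted p = 0.00742). *H2-Q5* (17:35394126-35397800), annotated as a polymorphic pseudogene, was at 11.8 and 13.4 CPM in WT and at 27.6 and 34.4 CPM in cKO. It rose 2.47-fold, with an interval of 1.83 to 3.32 (log2 fold change 1.30, SE 0.19, edgeR adjusted p = 0.00767). *H2-K2* (17:33974659-33978827), a pseudogene next to *H2-K1*, was at 52.9 and 52.4 CPM in WT and at 89.2 and 94.0 CPM in cKO. It rose 1.74-fold, with an interval of 1.46 to 2.06 (log2 fold change 0.80, SE 0.11, edgeR adjusted p = 0.00626). Without WT 2 the adjusted p of *H2-K2* was 0.0701. Of the 9, 2 were called higher without WT 2, 3 without WT 1 and 5 without cKO 1, and without cKO 2, 3 were called higher and 1 lower, where 0.734%, 2.04%, 5.11% and 6.69% of all genes were called higher.

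The other 6 tested were not called. *H2-T3* was near the floor, with 8 and 4 counts in WT and 13 and 21 in cKO (log2 fold change 1.64, edgeR adjusted p = 0.116). The others had log2 fold changes of 0.55 for *H2-Q2*, 0.32 for *H2-M3*, 0.14 for *H2-T24*, -0.01 for *H2-T22* and -0.24 for *H2-T10*. The median over the 9 was 0.55, with 7 above 0, beside -0.0015 for all genes. Summed over all 28 class I heavy chain genes in the tables, the level was 6045 and 6039 CPM in WT and 6812 and 6936 CPM in cKO.

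How much sequence these genes share with others bears on these values. A stretch of 50 bases, the length of the reads, may be present in the transcripts of 2 genes. It then cannot be assigned to either, unless they overlap on opposite strands and strand was used in counting. The strand setting is not stated, and the shares below include overlapping genes. Over GENCODE M21, with both strands searched, the share of such stretches was 36.4% for *H2-Q4*, 26.4% for *H2-Q7*, 23.2% for *Tapbp*, 14.5% for *H2-T23*, 12.8% for *H2-D1*, 11.6% for *Tap2*, 9.63% for *H2-K1*, 3.33% for *Tap1* and 0.338% for *Nlrc5*, and 0% of 811 stretches for *B2m*. The main partner of *Tapbp* (20.3%), *H2-Q4* (15.3%) and *Tap2* (9.22%) was a gene that overlaps it on the opposite strand, and *H2-Q4* shared 9.68% with *H2-Q6*. Among the called relatives it was 36.4% for *H2-Q5*, 35.0% for *H2-Q6* and 9.38% for *H2-K2*. It was highest for *H2-T22* at 53.5% and *H2-T10* at 50.4%, which were not called. *H2-Q5* shared 25.5% and *H2-Q6* 13.9% of their stretches with *H2-Q7*. The coding sequences of *H2-Q6* and *H2-Q7* were 95.4% identical in a global alignment, with 1 identical run of 265 bases, and those of *H2-K1* and *H2-D1* were 91.5% identical. The counts of these genes thus rest on the stretches that differ, and the values of single *H2-Q* genes are uncertain to that extent.

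An example of each extreme is given from the coding sequences, 5′ to 3′. The first, bases 658 to 707 of the *H2-Q7* coding sequence, was found unchanged in 9 class I genes, *H2-K1*, *H2-D1*, *H2-Q7* and *H2-T23* among them, so a read of exactly that stretch fits each of them.
Shared by 9 genes: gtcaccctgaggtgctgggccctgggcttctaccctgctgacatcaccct
The next lines show the aligned window that begins at base 3 of the *H2-K1* coding sequence and ends at base 52, chosen as the one where the genes differed most, with capitals at each base unlike *H2-K1*.
H2-K1: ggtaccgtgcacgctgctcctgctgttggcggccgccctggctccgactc
H2-D1: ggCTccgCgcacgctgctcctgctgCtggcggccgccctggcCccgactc
H2-Q4: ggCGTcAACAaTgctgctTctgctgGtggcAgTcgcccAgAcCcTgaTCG
H2-Q6: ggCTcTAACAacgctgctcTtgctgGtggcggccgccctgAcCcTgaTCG
H2-Q7: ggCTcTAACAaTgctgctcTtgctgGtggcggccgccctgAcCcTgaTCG
*H2-D1* differed from *H2-K1* at 5 bases there, *H2-Q6* at 15, *H2-Q7* at 16 and *H2-Q4* at 19.

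Overlap with genes on the opposite strand also bears on some members, because the strand setting of the counting is not stated. Opposite-strand exons covered 24.9% of the exonic length of *Tapbp*, 19.1% of *H2-Q4*, 18.5% of *Tap2*, 3.87% of *Tap1* and 0.918% of *Nlrc5*. The other members had none. Reads of a gene and of its partner on the other strand cannot be told apart there without strand.

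**Figure D3:**
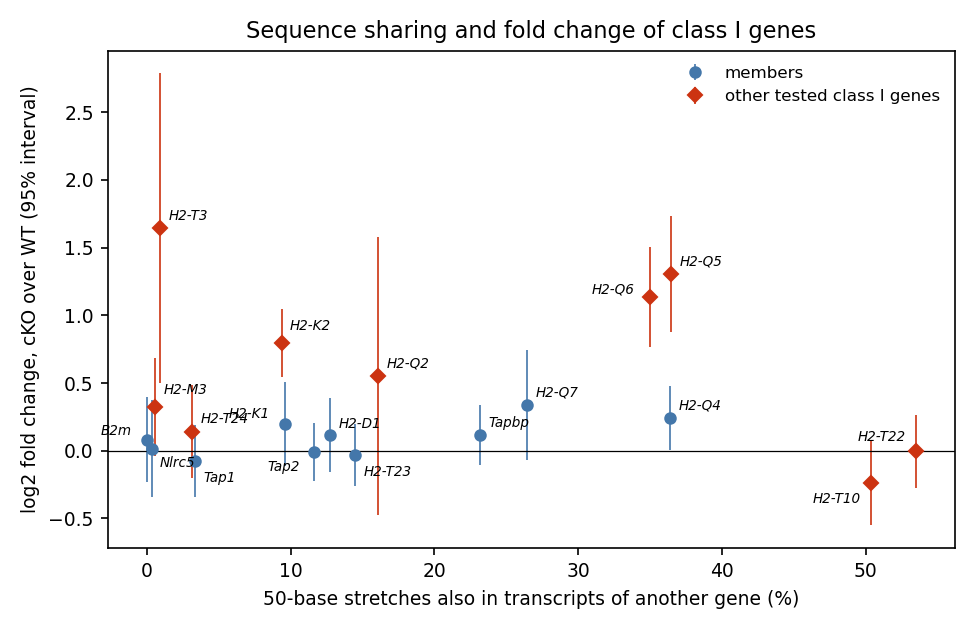
Percent of 50-base stretches that a gene shares with another gene, on the x axis, against the log2 fold change of cKO over WT, on the y axis, with 1 point per tested class I gene or pathway member. *B2m*, at 0%, and *Nlrc5*, at 0.338%, lie near a log2 fold change of 0, and so does *H2-T22* at 53.5%. The called *H2-Q5* and *H2-Q6* lie at 36.4% and 35.0%, and *H2-K2* at 9.38%.

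*H2-Q7* was also read together with its neighbours, by adding the deposited counts, which does not bring back dropped reads. The summed level of *H2-Q4*, *H2-Q5*, *H2-Q6* and *H2-Q7* was 701 and 689 CPM in WT and 811 and 1014 CPM in cKO, so both cKO libraries were higher. With the counts of the 4 genes added into 1 feature, an alternative added after the data were seen, the fold was 1.31 with an interval of 1.07 to 1.61 (log2 fold change 0.39, SE 0.13, edgeR adjusted p = 0.144), and it was not called. The ratio of *H2-Q6* to *H2-Q7* counts was 0.244 and 0.247 in WT and 0.453 and 0.410 in cKO.

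*H2-Q7*, *Nlrc5* and *Tap1* stood out in how far the cKO libraries differed from each other. On the log2 scale, cKO 2 was above cKO 1 by 0.60 in *H2-Q7*, 0.51 in *Nlrc5* and 0.27 in *Tap1*, while the median absolute difference between these libraries over all genes was 0.205. The remaining members differed by less than that, from -0.11 in *B2m* to 0.13 in *H2-Q4*. Between the WT libraries the largest difference was -0.23, in *H2-Q7*, beside a median absolute difference of 0.136 over all genes.

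Interferon-inducible genes also differed between the cKO libraries. Of 21 tested, 0 were called by edgeR or by DESeq2 and 4 passed an unadjusted p under 0.05 by edgeR, beside 19.1% of all genes (median log2 fold change 0.04), while 20 of 21 were higher in cKO 2 than in cKO 1, with a median log2 difference of 0.66. Without cKO 1, 9 of the 21 were called higher by edgeR, beside 5.11% of all genes, and without cKO 2, 9 were called lower, beside 6.07%. Over all tested genes 6071 of 12403 were higher in cKO 2, with a median of -0.0073. The summed level of the 21 genes was 1327 and 1235 CPM in WT, 1094.5 CPM in cKO 1 and 1749.8 CPM in cKO 2. *Gbp4*, a guanylate-binding protein gene and the one with the highest mean CPM, not scaled to length, was at 209 and 188 CPM in WT and at 180.3 and 278 CPM in cKO. The part of this split in the values of *H2-Q7*, *Nlrc5* and *Tap1* was not tested.

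**Figure D4:**
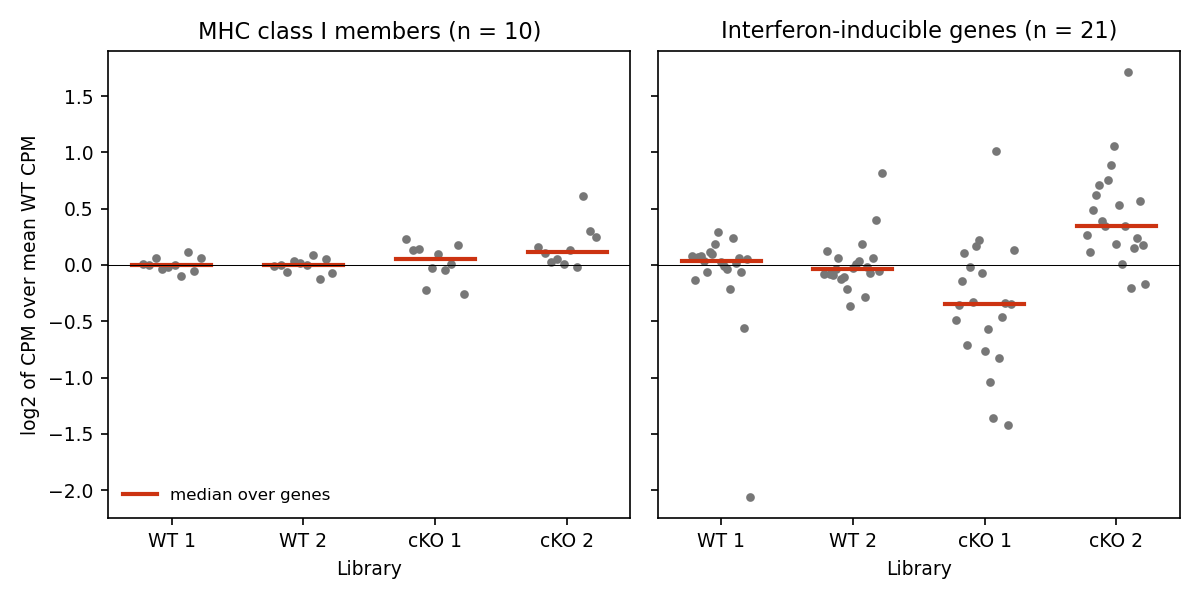
Log2 of CPM over the mean WT CPM of the same gene, with 1 grey point per gene and library and a red bar at the median over genes, for each gene list named above its panel. Among the members, *H2-Q7* and *Nlrc5* are 0.60 and 0.51 higher in cKO 2 than in cKO 1, and 20 of the 21 interferon-inducible genes are higher in cKO 2 than in cKO 1.

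The genes upstream of the members gave 1 call. Interferon receptor signalling had 11 tested genes, of which 1 was called higher and 0 lower, beside 2.35% and 1.95% of all genes. All 11 had a log2 fold change above 0 (median 0.24), beside 49.8% of all genes, and 3 passed an unadjusted p under 0.05 by edgeR, beside 19.1%. Without cKO 1, 5 were called higher, beside 5.11% of all genes, and without cKO 2, 2 were, beside 6.69%. The called gene was *Ifngr1*, the ligand-binding chain of the interferon gamma receptor, at 234 and 198 CPM in WT and at 520 and 481 CPM in cKO. Both cKO libraries were well above WT, with a fold of 2.31 and an interval of 1.93 to 2.77 (log2 fold change 1.21, SE 0.11, edgeR adjusted p = 0.000889). Among 13 transcription factors of class I promoters, 0 were called by edgeR or DESeq2 and 2 passed an unadjusted p under 0.05 by edgeR, beside 19.1% of all genes (median log2 fold change 0.15). Without cKO 2, 3 were called higher, beside 6.69% of all genes, and without cKO 1, 1 was, beside 5.11%. The factor with the highest mean CPM, not scaled to length, was *Nfkb1*, which encodes the p50 subunit of NF-kappaB, a factor that binds kappaB sequences, at 328 and 305 CPM in WT and at 397 and 425 CPM in cKO. Both cKO libraries were above both WT libraries (log2 fold change 0.38, SE 0.10, unadjusted p = 0.00472, edgeR adjusted p = 0.0764).

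Genes that make or fit the peptides did not pass the test with all 4 libraries. Of 5 immunoproteasome and PA28 genes, which encode proteasome subunits that cut peptides and an activator of the proteasome, 0 were called by edgeR or DESeq2 and 1 passed an unadjusted p under 0.05 by edgeR, beside 19.1% of all genes (median log2 fold change -0.16, with 4 of the 5 below 0). Without cKO 2, 2 of the 5 were called lower, beside 6.07% of all genes. *Psmb8*, a catalytic subunit, was at 286 and 272 CPM in WT and at 259.7 and 256 CPM in cKO (log2 fold change -0.11, edgeR adjusted p = 0.572). Of 5 genes that trim peptides or help load them, 0 were called by edgeR or DESeq2, beside 4.30% and 3.44% of all genes. At an unadjusted p under 0.05 by edgeR, 0 of these 5 passed, beside 19.1% of all genes (median log2 fold change of the 5, -0.06). Without cKO 1, 1 was called higher, beside 5.11% of all genes, and without cKO 2, 2 were called lower, beside 6.07%. *Calr*, the calreticulin chaperone of the loading complex, was at 556 and 492 CPM in WT and at 515 and 568 CPM in cKO (log2 fold change 0.04, edgeR adjusted p = 0.874).

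Class I-like genes outside the MHC were low, and 0 of the 3 tested were called by edgeR or DESeq2, beside 4.30% and 3.44% of all genes. At an unadjusted p under 0.05 by edgeR, 0 passed, beside 19.1% of all genes. Their median log2 fold change was -0.23. The one with the highest mean CPM, not scaled to length, was *Cd1d1*, whose product presents lipids to NKT cells, at 26.5 and 19.7 CPM in WT and at 30.7 and 29.5 CPM in cKO (log2 fold change 0.37, SE 0.17, edgeR adjusted p = 0.300). Both cKO libraries were above both WT libraries, and the gene did not pass the test.

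MHC class II genes, which present peptides to CD4+ T cells and are expressed mainly by B cells and myeloid cells in the mouse, were set beside the members as a check on the sort. Of 7 tested, 1 was called higher, beside 2.35% of all genes, and 5 passed an unadjusted p under 0.05, beside 19.1% (median log2 fold change 1.71). The called gene was *Cd74*, the invariant chain, at 22.9 and 27.1 CPM in WT and at 114.9 and 46.8 CPM in cKO (log2 fold change 1.71, SE 0.36, edgeR adjusted p = 0.0338). DESeq2 did not call it (adjusted p = 0.140), nor did edgeR without WT 2 (adjusted p = 0.0722). Its log2 fold change was 0.91 without cKO 1 and 2.21 without cKO 2. The class II chain genes *H2-Aa*, *H2-Ab1* and *H2-Eb1*, named after their values were seen, were not called, with log2 fold changes of 2.02, 1.87 and 1.72 (edgeR adjusted p = 0.0866, 0.0747 and 0.125), and each was highest in cKO 1. The rest of the tested list was not called either and lay lower. Log2 fold changes were 0.47 for *H2-Ob*, 0.03 for *H2-DMa* and -0.27 for *H2-Oa*, and the groups overlapped in *H2-DMa* and *H2-Oa*. The number of class II genes called was 5 without cKO 2, 4 without WT 1, 1 without cKO 1 and 0 without WT 2, all higher, where 6.69%, 2.04%, 5.11% and 0.734% of all genes were called higher.

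Markers of other cells differed between the groups in several of the lists, mostly at low levels. Of all genes, 2.35% were called higher and 1.95% lower. The 7 B cell markers summed to 13.2 and 14.6 CPM in WT and to 54.7 and 23.6 CPM in cKO, and 1 of 3 tested was called higher. The 9 myeloid markers summed to 28.3 and 35.0 CPM in WT and to 104.2 and 61.0 CPM in cKO, with 4 of 7 tested called higher. *Itgam*, not called, was lower in cKO, at 2.14 and 2.24 CPM in WT and at 1.33 and 1.06 CPM in cKO. *Csf1r* was not called and overlapped between the groups. The 5 NK cell markers summed to 121.8 and 113.2 CPM in WT and to 49.2 and 40.6 CPM in cKO, with 3 of 4 tested called lower. These were *Eomes*, *Gzma* and *Prf1*. *Klrb1c* was not called and overlapped between the groups, and *Ncr1* had too few counts to be tested. CD8 T cell markers summed to 47.7 and 58.5 CPM in WT and to 34.3 and 26.8 CPM in cKO, with 1 of 2 called lower. Dendritic cell markers summed to 5.35 and 6.498 CPM in WT and to 4.19 and 2.98 CPM in cKO, with both cKO libraries below WT and 0 of 1 tested called by edgeR or DESeq2 (*Itgax*, log2 fold change -1.57, unadjusted p = 0.0204, edgeR adjusted p = 0.168). Erythroid markers lay between 8.77 and 279.8 CPM, and the groups overlapped. Treg markers summed to 376 and 295 CPM in WT and to 695 and 916 CPM in cKO, with *Foxp3* and *Ctla4* called higher. CD4 T cell markers summed to 4465 and 4372 CPM in WT and to 5014 and 4560 CPM in cKO, with *Zbtb7b* called higher. Their part in the values of *H2-K1*, *H2-D1*, *Tapbp*, *H2-Q4* and the called class I genes was not tested, and in bulk RNA fewer cells of a type and less RNA per cell cannot be told apart.

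The called class I genes lie in the MHC on chromosome 17, as do 8 of the 10 members. Between *Tapbp* and the far end of the class I genes (17:33915899-37483552, GRCm38, 3568 kb), 122 genes were tested. Of these, 5 were called higher and 1 lower, which is 4.92% beside 4.30% over all genes, and the median log2 fold change was 0.0059. Apart from the members and the other class I heavy chain genes, 3 of 105 were called. They were named after their values were seen: *Hspa1b*, a heat shock protein gene (log2 fold change 2.43, edgeR adjusted p = 0.0440), *Gabbr1*, a GABA receptor gene (0.64, adjusted p = 0.0308), and *Ddr1*, a collagen receptor gene (-1.496, adjusted p = 0.0195).

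**Figure D5:**
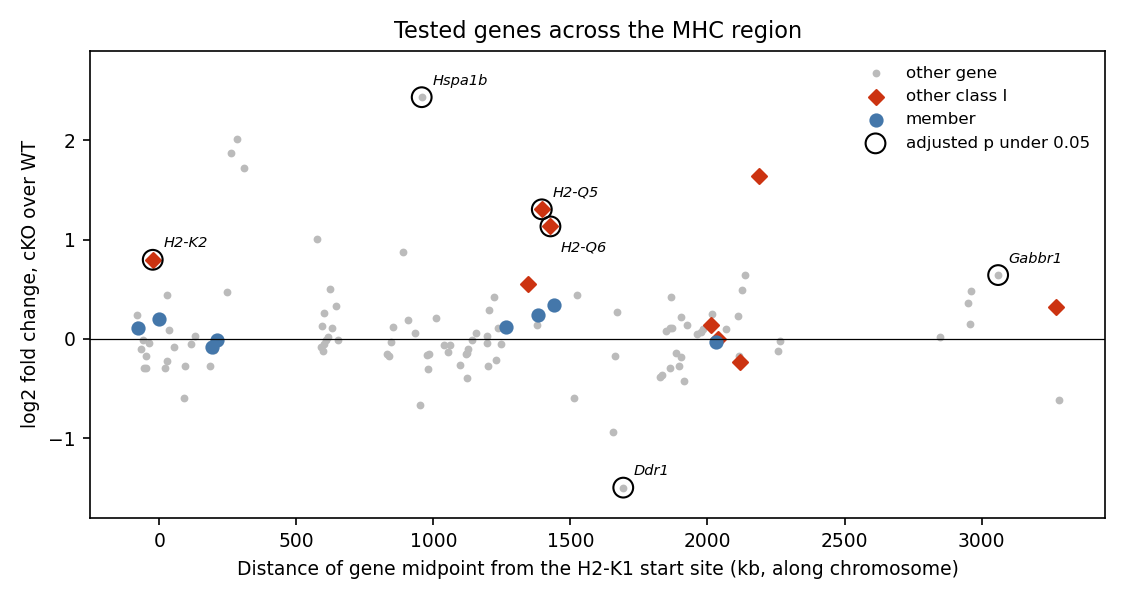
Log2 fold change of cKO against WT for each tested gene of the MHC region, placed by the distance of its midpoint from the *H2-K1* start site in kilobases along the chromosome. The 122 genes scatter around 0, and *H2-K2*, *H2-Q5* and *H2-Q6* are the called class I genes.

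The genes whose profile was most like that of the members were sought among 6058 tested genes with an average log2 CPM of at least 5. Likeness was the Euclidean distance between centred log2 CPM profiles over the 4 libraries, so it rests on 4 points. The mean profile of the members was -0.0422, -0.0518, -0.023 and 0.117 in WT 1, WT 2, cKO 1 and cKO 2. The nearest was *Triobp* at a distance of 0.00822, followed by *Stam2* at 0.0198, *Celf2* at 0.0201, *Zc3h14* at 0.0207 and *Son* at 0.0217.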

How the data were processed

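RNA from sorted CD4+ T cells, 2 WT and 2 cKO libraries, was read at 50 bp. The authors aligned reads to mm10 with HISAT2 2.1.0 and counted them with HTSeq (0.11.1 in the submitters' processing notes), and deposited raw read counts per gene symbol, unscaled. The annotation and the strand setting of the counting are not given in the sources used here. HTSeq leaves out reads that fit several genes or places: 11.3 to 13.5% of reads were not uniquely aligned, 0.611 to 0.734% of uniquely aligned reads were ambiguous and 59.4 to 64.5% fell on no feature. These summary lines stayed out of library sizes.

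Groups came from the genotype labels. Genes were filtered with filterByExpr, scaled by TMM and tested with the edgeR 4.0.16 quasi-likelihood F test (R 4.3.3), two-sided, on genotype alone, with Benjamini-Hochberg adjustment over all 12403 genes and a call at adjusted p under 0.05. SE was taken as the absolute log2 fold change over the square root of F. Intervals (level 0.95) rest on the moderated degrees of freedom, and cover how these libraries vary and the error of counting. Reads carried no molecular identifiers, so PCR copies count as reads. The fit was first tested on simulated data. DESeq2 1.42.0 was an alternative.

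Gene models, lengths and shared 50-base stretches came from GENCODE M21 on GRCm38, the assembly also called mm10 (53292 symbols matched), promoters from RefSeq GRCm38.p6, and alignments from Biopython 1.88 in Python 3.11.15, with plots by matplotlib 3.10.9. The members and gene lists were chosen with earlier results of these data known. All members were named. From the other lists, every called gene was named, and otherwise the one with the highest mean CPM. For likeness the 5 nearest genes were named. Called genes of the marker lists are given as counts, with those of the NK cell, CD4 T cell and Treg lists named. Some marker genes that were not called were named after their values were seen.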

Additional observations from a re-analysis of the deposited data

How the results depend on the processing

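Over the 12 alternatives of each member's log2 fold change, 111 of 120 values kept their direction and side of the threshold, 2 passed it with the same sign and 7 changed sign, 1 of which also passed it (*Nlrc5* without cKO 2, edgeR adjusted p = 0.0489). Those that changed sign were *Tap1* 0.054 without cKO 1, *Tap2* 0.013 without WT 2 and 0.012 without cKO 1, *H2-T23* 0.061 without WT 2, and *Nlrc5* -0.0051 with a replicate block, -0.050 without WT 2 and -0.26 without cKO 2. With a library left out, *Tap1* ranged from -0.22 to 0.054, *Tap2* from -0.028 to 0.013, *H2-T23* from -0.11 to 0.061, *Nlrc5* from -0.26 to 0.25, *H2-Q7* from 0.0050 to 0.61 and *B2m* from 0.025 to 0.15. Members called ranged from 0 to 2 when single libraries were left out. The 533 genes called became 1367 without a low-count filter, 1165 with a replicate block and 153 at adjusted p under 0.01, and ranged from 174 (without WT 2) to 1583 (without cKO 2). The 5 calls in the pathway lists became 15 without the filter and 13 with the block, and ranged from 3 to 27 with a library left out. Of them, class II genes went from 1 call to 5 without the filter and 5 with the block. Interferon-inducible genes went from 0 to 4 and 3, class I promoter factors from 0 to 1 and 1, and other class I genes from 3 to 4 and 3. Of 60 values of the called pathway genes, 57 kept their call. The exceptions were *H2-K2* without WT 2 (edgeR adjusted p = 0.0701) and *Cd74* without WT 2 (0.0722) and in DESeq2 (0.140). The log2 difference of the heavy chain sum was 0.17, from 0.170 to 0.179 over its alternatives. A fit without 1 library assumes that the lone library varies like the other group. The replicate numbers only name libraries, and same-numbered libraries deviated with a correlation of 0.0642. Causes were not tested. With 2 libraries a group, the 95% intervals of the members reach from 0.788-fold (*Tap1*) to 1.68-fold (*H2-Q7*).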
